A study of Mus musculus with 2 samples.

Results

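Adhesion G protein-coupled receptors are the genes whose symbols have the form Adgr, a letter and a number. All symbols of that form listed for both libraries were taken, which gave 27 genes of the 25114 symbols that both libraries list. The rule uses symbols and no measured value, but the family was chosen with earlier results of these data known. Each library came from 1 mouse whose liver vein outflow had been narrowed by partial inferior vena cava ligation (pIVCL), a model of congestive liver injury. The control-labelled library carried Ctgffl/fl, and the knockout-labelled library carried Cdh5-CreERT2; Ctgffl/fl, in which a Cre driven by the endothelial Cdh5 promoter can delete Ctgf, listed as Ccn2, in endothelial cells. The mice were described as a male knockout and its littermate control. Their age is not given in the sources used here, and neither is how the CreERT2 was activated. The sample titles name the genotypes the other way round, whereas the library names follow the genotype field, so the libraries are called control-labelled and knockout-labelled. Where a pair of values carries no label, the control-labelled library comes first. Ccn2 followed the genotype labels: in CPM, a gene's share of all counts on the usual scale, it stood in endothelial cells at 1044 CPM in the control-labelled library and 4.63 CPM in the knockout-labelled library, and in stellate cells at 1123 and 1095 CPM.

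Adhesion receptors have a long extracellular part, in most members cut by the receptor itself at a site next to the membrane, joined to a part that spans the membrane repeatedly. Ligands on neighbouring cells or in the matrix, and pulling forces, expose a short tethered stretch that activates the receptor, which then signals through heterotrimeric G proteins. In the liver the best known member is Adgre1, which encodes the F4/80 antigen of mouse macrophages. Several others are known from blood vessels.

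With 1 library per genotype label there is no replicate, no test and no p-value. A level is the CPM of the counts summed over the cells of a type, with an exact Poisson 95% interval. A ratio is knockout over control on the log2 scale, with an exact 95% interval. Both intervals cover counting error only. A gene was measured in a type when it had at least 20 counts over both libraries and at least 10 CPM in 1 of them. It was called apart when the libraries differed at least 1.5-fold. Cells were put into types by markers that include no adhesion receptor, and each name stands for cells like that type. The libraries held 10000 barcodes each, with totals of 106208933 counts in the control-labelled library and 129802501 in the knockout-labelled library. After filtering, 7521 and 8359 cells remained, with medians of 7777 and 9144 counts per cell. The gate left 31.4% and 19.3% of them in no type, and the libraries shared 2 barcode labels. Endothelial cells numbered 1677 and 3441, Kupffer cells 1003 and 1467, stellate cells 497 and 515, and monocytes with their derived macrophages 623 and 180. Of the endothelial cells, 130 and 72 lay within 0.05 of a gate cut, for their own score or for another lineage's score relative to it.

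Of the 27 genes, 16 were measured in at least 1 of the 13 types with at least 20 cells in each library. The other 11 were Adgra1, Adgrb1, Adgrb2, Adgrb3, Adgrf1, Adgrf2, Adgrf3, Adgrf4, Adgrg2, Adgrg4 and Adgrg7. Adgrb2 and Adgrg2 passed the minimum in mesothelial cells alone, of which there were 38 and 16. Adgrb2 stood there at 14.6 and 42.2 CPM and Adgrg2 at 35.0 and 45.0 CPM, from 10 to 24 counts a library. With every cell thinned to 3000 counts, the median endothelial cell held counts of 4 different adhesion receptors in either library. The median Kupffer cell held 2 in the control-labelled library and 3 in the knockout-labelled library, and the median stellate cell 2 in both. The median hepatocyte, the parenchymal cell that the isolation depleted, held 0 in both.

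**Figure D1:**
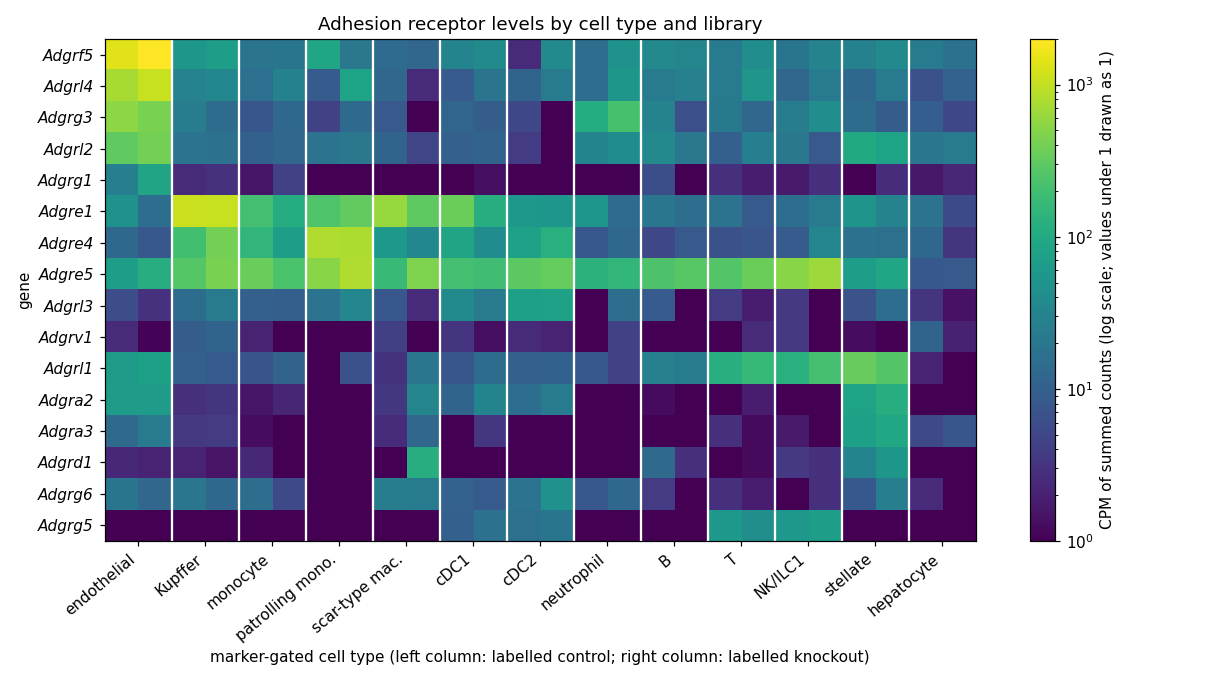
Levels of the 16 measured adhesion receptors (rows) in 13 cell types, as CPM of summed counts on a logarithmic colour scale, with the control-labelled library in the left and the knockout-labelled library in the right column of each type. Adgrf5 and Adgrl4 are bright in endothelial cells, Adgre1 in Kupffer cells, Adgre4 in patrolling monocytes and Adgrl1 in stellate cells, in both libraries.

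The endothelial group was led by Adgrf5 and Adgrl4. Adgrf5 encodes a receptor known for controlling surfactant in the lung and expressed in vessel linings. It stood at 1403 CPM (1383 to 1424) in endothelial cells of the control-labelled library and 1989 CPM (1973 to 2005) of the knockout-labelled library, and its mean level over the libraries was 20.1-fold that of the next type, mesothelial cells. Adgrl4 encodes an endothelial receptor known from growing vessels, and stood at 731 and 1047 CPM, 19.7-fold patrolling monocytes, the next type. Nearly every endothelial cell held Adgrf5: 99.9% of them in both libraries had a count, and after thinning to 3000 counts 97.4% and 99.4% had one. In B cells, which are not known to make it, 13.7% and 10.3% had a count, and 6.21% and 8.62% after thinning. Median depths were 6700 and 7220 counts per endothelial cell and 4524 and 4056 per B cell. The level of Adgrf5 in B, T and hepatocyte classes ran from 17.4 to 41.6 CPM. Whether lower values of endothelial genes in other types are background was not tested.

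Adgrg3, Adgrl2 and Adgrg1 completed the group with an endothelial maximum. Adgrg3, also known from granulocytes, stood at 551 CPM (539 to 564) in endothelial cells of the control-labelled library and 428 CPM (420 to 435) of the knockout-labelled library. Neutrophils came next at 109 CPM (59.8 to 183) and 219 CPM (192 to 248), and 36.0% of 25 and 64.9% of 174 neutrophils held a count, against 9.32% and 1.72% of B cells. Adgrl2, a latrophilin, stood at 314 and 414 CPM in endothelial cells and 102 and 82.8 CPM in stellate cells. Adgrg1, which encodes a receptor known to bind type III collagen and transglutaminase 2 in the brain, stood at 26.3 and 83.7 CPM in endothelial cells. Among the types with enough cells for a ratio it was measured in these alone, and in mesothelial cells it stood at 7.28 and 67.5 CPM from 5 and 24 counts.

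The promoters of these genes are shown because Adgrf5 and Adgrl4 had the 2 largest folds of endothelial cells over the next type among genes highest there, while Adgrg1 and Adgrg3 are neighbours on 1 chromosome whose levels went opposite ways in the same endothelial cells. The sequences are those of RefSeq on GRCm38.p6, 250 bases before to 50 after the gene start, read along the gene's strand. They hold chr17:43360181-43360480 for the more upstream of 2 Adgrf5 starts, chr3:151437632-151437931 for Adgrl4, chr8:95017442-95017741 for Adgrg3 and chr8:94976859-94977158 for the more upstream of 2 Adgrg1 starts, all on the plus strand. Capitals mark AGGAAG or its reverse complement CTTCCT, a core of the motif bound by ETS factors, of which several act in endothelial cells.
Adgrf5: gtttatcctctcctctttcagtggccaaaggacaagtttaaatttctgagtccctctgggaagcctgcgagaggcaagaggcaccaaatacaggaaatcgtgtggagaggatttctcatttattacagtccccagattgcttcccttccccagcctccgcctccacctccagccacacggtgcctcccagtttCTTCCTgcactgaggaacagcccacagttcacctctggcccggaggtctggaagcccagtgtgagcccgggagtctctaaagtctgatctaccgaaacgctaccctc
Adgrl4: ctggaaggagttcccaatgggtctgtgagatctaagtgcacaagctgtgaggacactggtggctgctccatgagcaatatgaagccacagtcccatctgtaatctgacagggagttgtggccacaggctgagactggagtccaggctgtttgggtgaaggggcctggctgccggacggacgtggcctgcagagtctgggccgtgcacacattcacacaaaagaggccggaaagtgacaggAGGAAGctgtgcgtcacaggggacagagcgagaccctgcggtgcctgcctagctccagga
Adgrg3: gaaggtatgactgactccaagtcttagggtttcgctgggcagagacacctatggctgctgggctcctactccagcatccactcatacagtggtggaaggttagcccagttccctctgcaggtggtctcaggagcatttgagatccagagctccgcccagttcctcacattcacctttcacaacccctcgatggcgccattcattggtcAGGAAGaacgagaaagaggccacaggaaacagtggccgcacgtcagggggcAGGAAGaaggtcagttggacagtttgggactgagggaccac
Adgrg1: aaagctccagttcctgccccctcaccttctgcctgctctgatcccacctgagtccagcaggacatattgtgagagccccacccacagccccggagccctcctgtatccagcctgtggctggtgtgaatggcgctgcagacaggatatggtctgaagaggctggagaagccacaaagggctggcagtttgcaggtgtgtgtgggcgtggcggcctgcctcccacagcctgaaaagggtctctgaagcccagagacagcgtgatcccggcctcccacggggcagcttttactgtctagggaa
The Adgrf5 start shown and Adgrl4 each held 1 match, and Adgrg3 held 2. The other Adgrf5 start held none, and neither did either Adgrg1 start. Over all 32851 promoters of the same length, 35.4% held a match on either strand, and of the 24 promoters found for 20 of the 27 genes 9 did. A match describes the letters and no binding was measured. In the RefSeq gene order 11 of the 27 genes had another adhesion receptor as the protein-coding gene directly before or after, whatever the distance. Adgrg5, Adgrg1 and Adgrg3 followed each other on chromosome 8, where Adgre5 and Adgrl1 were also adjacent. On chromosome 3, Adgrl2 and Adgrl4 were adjacent in that order. The adjacent trio differed in type: Adgrg5 was measured in T, NK and dendritic classes and stood at 0.597 and 0.380 CPM in endothelial cells, Adgrg1 was measured in endothelial cells, and Adgrg3 mainly in endothelial cells and neutrophils.

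The leukocyte group held the 3 Adgre genes. Adgre1 stood at 1086 CPM (1069 to 1104) in Kupffer cells of the control-labelled library and 1063 CPM (1050 to 1075) of the knockout-labelled library, with log2 ratio -0.03. After thinning, 95.2% and 93.7% of Kupffer cells held a count of it, and 99.4% and 99.6% without thinning, against 7.45% and 5.60% of B cells. Adgre4, a relative restricted to myeloid cells in mice, was highest in patrolling monocytes, the subset that crawls along vessel walls, at 816 CPM (701 to 944) and 786 CPM (650 to 943), from 42 and 22 cells. Kupffer cells came next at 201 and 404 CPM, and the intervals of these types stood apart in both libraries. Adgre5, which encodes CD97, the receptor of the complement regulator CD55, was widespread. It stood at 521 CPM (430 to 626) and 820 CPM (680 to 980) in patrolling monocytes and 511 CPM (454 to 573) and 659 CPM (579 to 748) in natural killer (NK) or ILC1 cells, with overlapping intervals in both libraries. It was measured in 12 of the 13 types, hepatocytes being the exception.

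**Figure D2:**
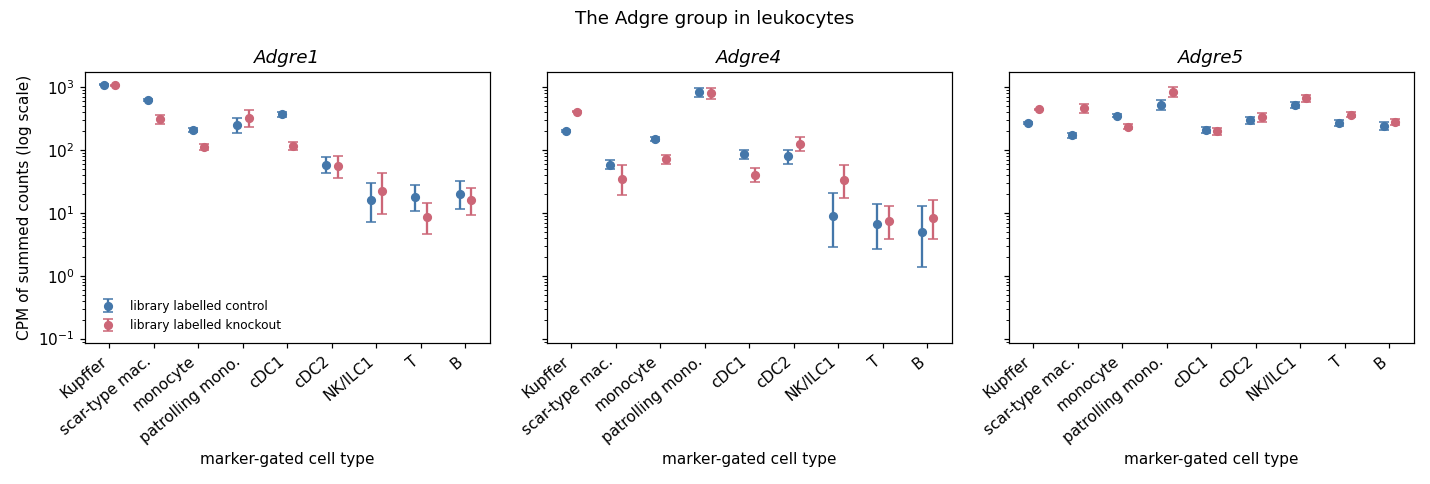
Levels of Adgre1, Adgre4 and Adgre5 in 9 leukocyte types, as CPM of summed counts on a logarithmic axis, with points for each library and bars for exact Poisson 95% intervals. Adgre1 peaks in Kupffer cells, Adgre4 in patrolling monocytes, and Adgre5 varies least between the types.

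Smaller leukocyte signals belonged to Adgrg5, Adgrl3 and Adgrv1. Adgrg5 stood at 57.8 and 68.7 CPM in NK or ILC1 cells and 57.4 and 42.8 CPM in T cells, and the intervals of these types overlapped. Adgrl3, a latrophilin known from synapses, was highest in type 2 conventional dendritic cells at 73.4 CPM (55.6 to 95.1) and 78.3 CPM (55.2 to 108). Type 1 conventional dendritic cells followed at 37.4 and 22.6 CPM, in a class whose median gate score was 0.6 in the control-labelled library and 0.894 in the knockout-labelled one. Adgrv1, whose loss causes deafness in mice, reached 9.31 and 11.6 CPM in Kupffer cells. Hepatocytes came next at 6.73 CPM on the mean of both libraries, and the intervals of these types were not apart in both.

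The mesenchymal group held Adgrl1, Adgra2 and Adgra3, while Adgrd1 was highest in mesothelial cells. Adgrl1, a latrophilin known from nerve endings, stood at 343 CPM (327 to 359) and 259 CPM (245 to 273) in stellate cells, the vitamin A storing cells of the liver. NK or ILC1 cells had 126 and 212 CPM of it and T cells 116 and 164 CPM. Adgra2, a partner of Reck in Wnt signalling of brain vessels, stood at 81.9 and 112 CPM in stellate cells and 92.4 and 102 CPM in smooth muscle cells, which numbered 64 and 13. These types could not be ordered within their intervals. Adgra3 stood at 72.2 and 95.3 CPM in stellate cells, above smooth muscle cells at 45.0 and 19.7 CPM. Adgrd1 stood at 832 CPM (765 to 903) and 805 CPM (714 to 904) in mesothelial cells, the lining of the liver surface, 10.6-fold the next type on the mean of both libraries, from 38 and 16 cells. In stellate cells it stood at 31.3 and 55.8 CPM.

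Endothelial cells of the knockout-labelled library had more Adgrg1 and Adgre5 and less Adgre1 than those of the control-labelled library. Of 12 measured genes, 3 were at least 1.5-fold higher, against 5.08% of all 9119 genes measured in endothelial cells, and 3 were at least 1.5-fold lower, against 11.9%. Their median log2 ratio was 0.32 and that of all genes -0.04. Different clusters held most of the class: cluster 0 held 54.6% and 12.9% of it, and cluster 23 held 7.04% and 71.2%. Adgrg1 was the furthest apart of the higher genes, at 26.3 CPM (23.7 to 29.2) and 83.7 CPM (80.4 to 87.1), with log2 ratio 1.67 (interval 1.51 to 1.83). A count of it was found in 16.1% and 42.1% of endothelial cells, in 8.11% and 22.6% after thinning, and in 1.24% and 0 of the B cells, where 0 of 232 allows up to 1.29% of cells holding a count. Adgre5 was higher at 115 against 69.0 CPM, with log2 ratio 0.74 (interval 0.64 to 0.85). Adgra3 was higher at 23.3 against 13.9 CPM, with log2 ratio 0.75 (interval 0.51 to 0.99).

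Adgre1 stood at 47.9 and 15.7 CPM in the endothelial class, with log2 ratio -1.61 (interval -1.79 to -1.44), and Adgre4 at 13.2 and 7.78 CPM, with log2 ratio -0.76 (interval -1.05 to -0.47). Markers of other types were present in this class. The 7 Kupffer markers summed to 322 CPM in the control-labelled library and 162 CPM in the knockout-labelled library, and the 7 monocyte markers to 90.8 and 28.6 CPM, with none at 0. Their part in the levels of both genes was not tested. Adgrf5 and Adgrl4 had log2 ratios of 0.50 (0.48 to 0.53) and 0.52 (0.48 to 0.55), and Adgrl2 of 0.40, short of 1.5-fold. Adgrg3 was lower, with a log2 ratio of -0.37 (-0.41 to -0.32). Scaling by edgeR's trimmed mean shifted all endothelial ratios by 0.14 and median-of-ratios scaling by 0.12, which took Adgrf5 and Adgrl4 past 1.5-fold and Adgrg6 below it. Under either scaling 5 genes were higher and 2 lower. The shares of all genes given above were taken before this scaling and do not apply to these counts. The levels of Adgrl1 at 63.1 and 74.5 CPM and of Adgra2 at 66.6 and 65.8 CPM differed least.

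**Figure D3:**
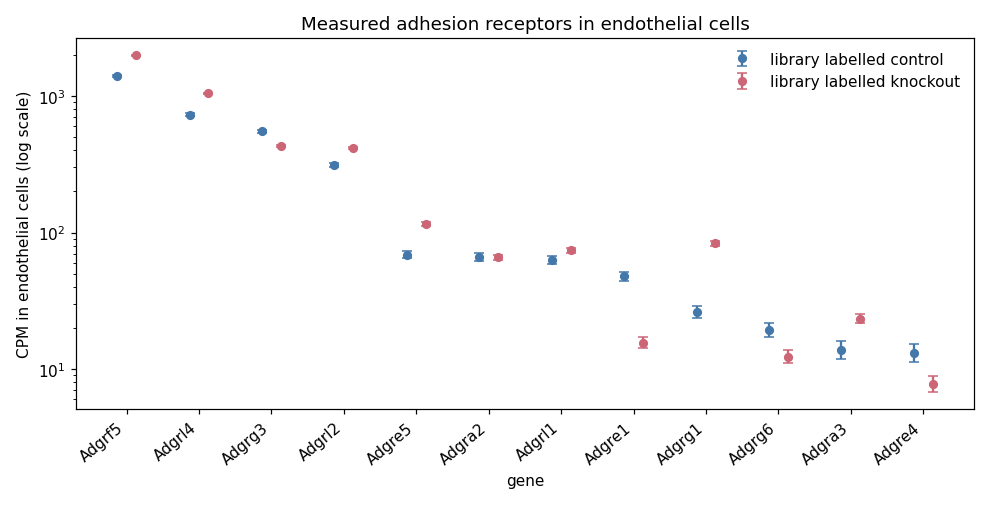
Levels of the 12 adhesion receptors measured in endothelial cells, as CPM of summed counts on a logarithmic axis, with a point for each library and bars for exact Poisson 95% intervals. Adgrg1 is higher in the knockout-labelled library, at 83.7 against 26.3 CPM, and Adgre1 lower, at 15.7 against 47.9 CPM.

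Within the endothelium Adgrg6 was highest in the large vessels. Adgrg6 encodes a receptor required for myelination by Schwann cells and known to bind type IV collagen and laminin. Over whole types, its mean level of both libraries was highest in type 2 conventional dendritic cells at 32.3 CPM. Scar-type macrophages came next at 23.7 CPM, and the intervals of these types were not apart in both libraries. Large vessel cells, gated by Vwf with at least 4 of 8 vessel markers, numbered 62 and 36. There it stood at 179 CPM (151 to 211) and 306 CPM (257 to 361), against 9.36 and 7.69 CPM in all other endothelial cells, 19.1-fold and 39.8-fold. Of all endothelial Adgrg6 counts, 54.6% and 38.8% came from these cells, which made up 3.70% and 1.05% of endothelial cells. Over all endothelial cells Adgrg6 was lower in the knockout-labelled library, at 12.4 against 19.4 CPM, with log2 ratio -0.65 (interval -0.88 to -0.41; -0.51 with trimmed mean scaling), whereas in the large vessel class it was higher, with a log2 ratio of 0.77 (0.42 to 1.12). In cells of no zone it was level at 2.18 and 2.23 CPM. None of the other 11 genes was apart by 1.5-fold between large vessel and other endothelial cells in the same direction in both libraries. For all genes the matching share is not given here.

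Adgrg1 was at least 1.5-fold apart in every endothelial class of position. Pericentral cells numbered 142 and 578, periportal cells 548 and 1698, and cells of no zone 925 and 1129. Adgrg1 stood at 18.7 and 84.3 CPM in pericentral cells, 40.9 and 87.9 CPM in periportal cells, 29.0 and 63.8 CPM in large vessel cells and 20.6 and 78.4 CPM in cells of no zone. In the control-labelled library its periportal interval lay above the pericentral one, and in the knockout-labelled library the 2 overlapped. Adgre5 stood at 59.2 and 102 CPM in pericentral, 82.7 and 128 CPM in periportal and 60.5 and 105 CPM in cells of no zone. In large vessel cells it stood at 106 and 128 CPM, with log2 ratio 0.27 (interval -0.24 to 0.77). By sign alone, whatever the size or interval, Adgre5, Adgra3, Adgrf5, Adgrl1, Adgrl2 and Adgrl4 were higher in 4 of 4 classes, and Adgrg3, Adgre1 and Adgre4 lower in 4 of 4. How many of all genes keep their sign over these classes is not given here.

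The endothelial states differed in share as well. Cells with angiogenic markers made up 33.1% and 9.07% of endothelial cells, and cells with the Cyp26b1 and Car8 markers, a state known from earlier results on these data, 1.55% and 44.3%. Adgrg1 stood at 21.3 and 37.5 CPM in the angiogenic state, with log2 ratio 0.82 (interval 0.40 to 1.24). It stood at 66.9 CPM (32.1 to 123) and 104 CPM (98.8 to 110) in the Cyp26b1 and Car8 state, which held 26 and 1525 cells, with log2 ratio 0.64 (interval -0.24 to 1.70). In cells of neither state it stood at 28.2 and 71.0 CPM, with log2 ratio 1.33 (interval 1.13 to 1.54). Each of these was smaller than the 1.67 over all endothelial cells. Other genes had the opposite sign in the Cyp26b1 and Car8 state, and for Adgre5, Adgra3, Adgrl1 and Adgre1 the intervals included 0. The log2 ratios there were -0.33 (-0.92 to 0.33) for Adgre5, -0.37 for Adgra3 and -0.35 for Adgrl1, from 5 to 23 counts in the control-labelled library, and 0.36 for Adgre1 from 1 count. Adgrg6 had 0.59 there against -0.65 over all endothelial cells, and its interval in this state is not given here. In the angiogenic state and in cells of neither, Adgre5 had 0.74 and 0.60 and Adgre1 had -0.73 and -1.30.

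**Figure D4:**
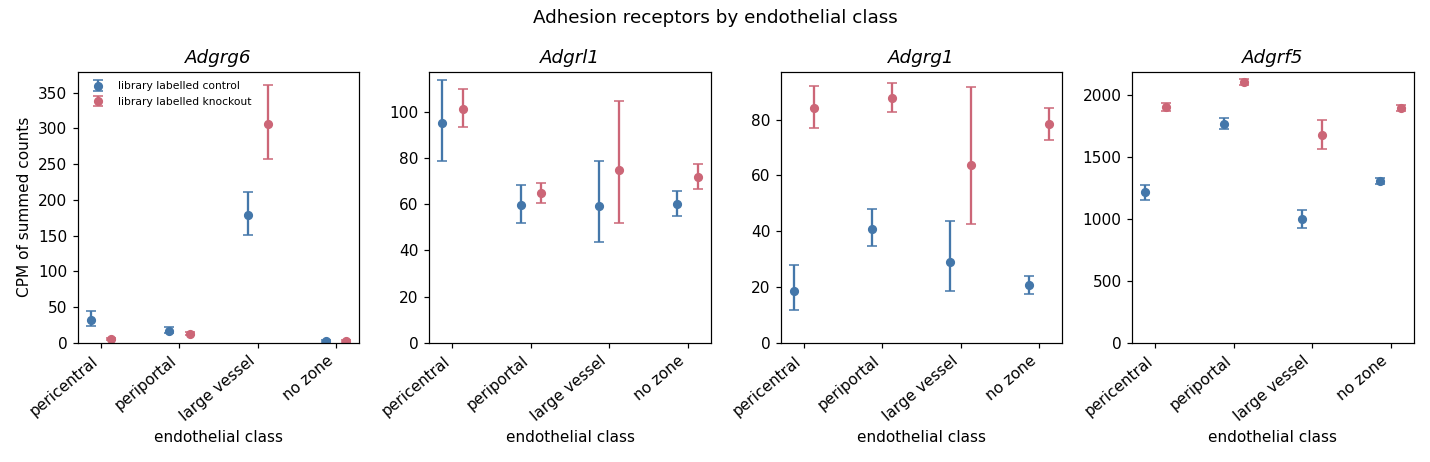
Levels of Adgrg6, Adgrl1, Adgrg1 and Adgrf5 in 4 endothelial classes, as CPM of summed counts on linear axes from 0, with a point for each library and bars for exact Poisson 95% intervals. Adgrg6 stands at 179 and 306 CPM in large vessel cells and at 32.5 CPM or less elsewhere, and Adgrl1 is highest in pericentral cells of both libraries.

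Between pericentral and periportal sinusoids only Adgrl1 was 1.5-fold apart in the same direction in both libraries, among the 11 genes measured in both. It stood at 59.6 CPM in periportal and 94.9 CPM in pericentral cells of the control-labelled library, with log2 ratio 0.67, and at 64.6 and 101 CPM in those of the knockout-labelled library, with log2 ratio 0.65 and both intervals above 0. The share of all genes apart the same way in both libraries is not given here. In the control-labelled library 4 of 12 genes were at least 1.5-fold higher in pericentral cells, against 13.7% of all genes, and 3 in periportal cells, against 9.81%. In the knockout-labelled library 1 of 11 was higher in pericentral cells, against 4.69% of all genes, and 1 in periportal cells, against 3.38%. The second of these was Adgrg6, at 4.97 pericentral and 12.8 periportal CPM, which in the control-labelled library had stood at 32.5 and 17.0 CPM. Adgrl4 stood at 599 pericentral and 865 periportal CPM in the control-labelled library and at 1101 and 1040 CPM in the knockout-labelled library.

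In Kupffer cells Adgre4, Adgre5 and Adgrl3 were higher in the knockout-labelled library. These were 3 of 11 measured genes, against 3.96% of all 8793 genes, and 2 were lower, against 6.35%. Adgre4 stood at 201 CPM (193 to 208) and 404 CPM (396 to 412), with log2 ratio 1.01 (interval 0.95 to 1.07). A count of it was found in 42.1% and 66.9% of Kupffer cells after thinning, in 81.6% and 95.4% without, and in 2.48% and 2.16% of B cells. Adgre5 stood at 270 and 439 CPM, with log2 ratio 0.70 (interval 0.65 to 0.75), and Adgrl3 at 14.6 and 23.8 CPM, with log2 ratio 0.70 (interval 0.47 to 0.94). Median depth was 13131 and 17353 counts per Kupffer cell. Cluster 2 held 60.1% of the class in the control-labelled library and 88.1% in the knockout-labelled library, and cluster 20, which stayed unnamed, held 21.2% and 1.57%. Adgrg3 was lower at 25.3 against 14.5 CPM and Adgrg6 at 19.6 against 12.8 CPM. In the Kupffer class the 10 endothelial markers summed to 723 and 866 CPM, the 5 of scar-type macrophages to 412 and 75.6 CPM, the 7 of monocytes to 114 and 37.7 CPM and the 4 cycling markers to 272 and 55.1 CPM. None of these markers was at 0 in either library, and their part in the Kupffer values was not tested.

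Stellate cells of the knockout-labelled library had more Adgrg6, Adgrl3 and Adgrd1. Of 13 measured genes 4 were higher, against 7.83% of all 9440 genes, and 2 lower, against 11.9%. Adgrg6 stood at 8.01 CPM (5.79 to 10.8) and 25.8 CPM (21.5 to 30.7), with log2 ratio 1.69 (interval 1.18 to 2.22). A count of it was found in 6.44% and 12.6% of stellate cells, in 1.41% and 4.27% after thinning, and in 1.24% and 0 of the B cells. Adgrl3 stood at 7.07 and 15.7 CPM, with log2 ratio 1.15 (interval 0.58 to 1.76). Adgrd1 stood at 31.3 CPM (26.7 to 36.4) and 55.8 CPM (49.4 to 62.9), with log2 ratio 0.84 (interval 0.55 to 1.12). Summed markers of contractile smooth muscle stood at 2336 and 865 CPM in this class and those of mesothelial cells at 6.70 and 9.61 CPM, and their part was not tested. Adgrl4 stood at 12.8 and 23.7 CPM beside endothelial markers summing to 446 and 586 CPM, with none at 0. Adgre1 was lower at 51.0 against 30.1 CPM beside Kupffer markers at 475 and 466 CPM, and Adgrg3 at 14.9 against 9.41 CPM. Adgrl1, the gene with its maximum here, fell short of 1.5-fold, with a log2 ratio of -0.41 (-0.51 to -0.30).

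The monocyte class gave less stable values. Of 10 measured genes 3 were higher in the knockout-labelled library, against 16.2% of all 8827 genes, and 4 were lower, against 13.1%. Adgre1 stood at 205 and 111 CPM, Adgre4 at 148 and 70.9 CPM, Adgre5 at 350 and 232 CPM and Adgrg6 at 15.4 and 5.38 CPM. The 3 higher genes, Adgrg3, Adgrl1 and Adgrl4, had between 25 and 63 counts in each library. Cluster 3 held 66.5% of the class in the control-labelled library, and 43.3% in the knockout-labelled one, where cluster 27 held 46.7%. The 4 cycling markers summed to 254 and 2684 CPM. With whole clusters in place of gated cells the log2 ratio of Adgre4 was 0.45 and that of Adgre5 was 0.16, so their direction depends on which cells are counted.

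**Figure D5:**
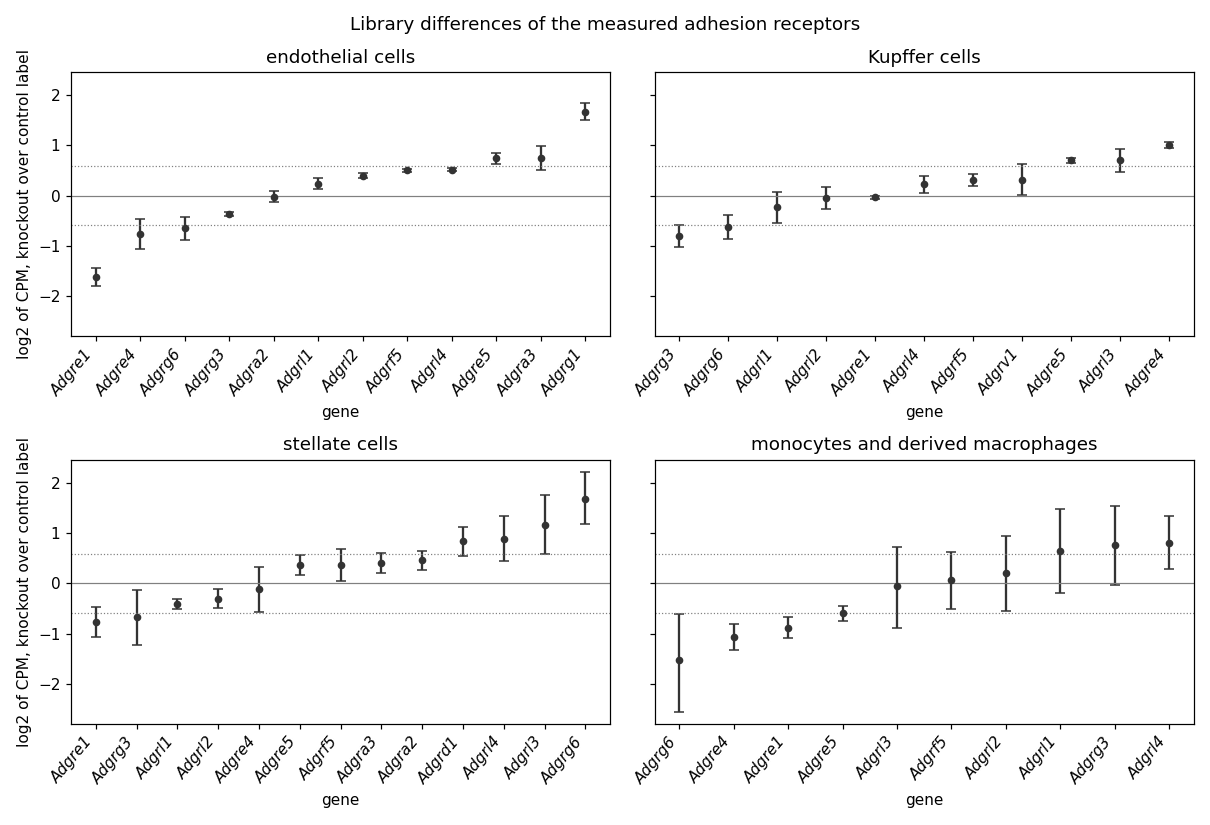
Log2 ratio of CPM in the knockout-labelled library over control for each measured adhesion receptor in 4 types, with bars for exact 95% intervals and dotted lines at 1.5-fold. Adgrg1 in endothelial cells and Adgrg6 in stellate cells lie highest, at 1.67 and 1.69.

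Ligands and partners reported for adhesion receptors in some species were mostly lower in endothelial cells of the knockout-labelled library. Of 27 such genes 10 were measured, none was higher and 8 were lower, against 5.08% and 11.9% of all genes; their median log2 ratio was -0.85, against -0.04 over all genes. Col3a1, the collagen bound by the Adgrg1 protein, stood at 18.3 and 8.02 CPM, with log2 ratio -1.19 (interval -1.45 to -0.92), and Tgm2, which encodes transglutaminase 2, at 220 and 132 CPM, with log2 ratio -0.74. Col4a1, a collagen bound by the Adgrg6 protein, stood at 1360 and 783 CPM, with log2 ratio -0.80. Flrt1, Flrt2 and Flrt3, the latrophilin ligands, had log2 ratios of -0.86, -1.71 and -2.15. Thy1, an Adgre5 partner, and Elmo1, an adaptor of the Adgrb1 protein, had -1.29 and -0.84. Cd55, the other Adgre5 partner, stood at 681 and 966 CPM, with log2 ratio 0.51. In the endothelial class the 8 stellate markers summed to 265 and 222 CPM, the 5 mesothelial markers to 126 and 29.9 CPM and the 5 smooth muscle markers to 30.3 and 5.01 CPM. Msln was at 0 in the control-labelled library and Cnn1 in both, and the part of these cells in the ligand values was not tested.

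In stellate cells 9 of those 27 genes were measured, with 1 higher and 3 lower, against 7.83% and 11.9% of all genes. Reck, the partner of the Adgra2 protein, stood at 57.0 and 106 CPM, Col4a1 at 3628 and 1350 CPM, Col3a1 at 4012 and 1666 CPM and Lama2 at 149 and 98.8 CPM. In Kupffer cells 6 were measured, with Cd55 higher and Col4a1 and Tgm2 lower, against 3.96% and 6.35% of all genes. In the monocyte class 6 were measured, with 0 higher and 3 lower, against 16.2% and 13.1%. Of 15 G protein alpha subunits and arrestins 11 were measured in endothelial cells, 2 were higher and 0 lower, against 5.08% and 11.9% of all genes. Gna14 stood at 1.87 and 16.9 CPM, with log2 ratio 3.18 (interval 2.60 to 3.82), and Gnao1 at 4.33 and 10.4 CPM, with log2 ratio 1.27 (interval 0.86 to 1.70). In stellate cells 12 of the 15 were measured, with 2 higher and 1 lower, against 7.83% and 11.9%. Gna14 stood there at 12.5 and 42.7 CPM, Gnao1 at 2.61 and 11.04 CPM, and Arrb2, a beta-arrestin, at 45.6 and 29.7 CPM. The 3 cadherin-type relatives outside the symbol rule, the Celsr genes, were measured in none of the 4 types.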

How the data were processed

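Livers were perfused with enzymes, hepatocytes, dead cells and erythrocytes were depleted, and about 10000 viable cells a mouse were profiled with BD Rhapsody whole transcriptome analysis, per the labels' protocols. The deposited values are raw whole-number counts for every gene in every barcode. GRCm39 is the genome build named, per the submitters' processing notes. How reads were aligned and counted, whether molecular identifiers were collapsed and how cells were called is not given in the sources used here, so intervals may be too narrow even for counting error.

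A barcode was kept when it had 300 genes or more, 500 counts or more and no more than 25% of its counts from mitochondrial genes, which left 7917 and 8799. Scrublet in Scanpy 1.11.5 marked 1 and 1 of them by its own threshold, which was not used. The top 5% of scores were removed instead, 396 and 440 cells. How many doublets the libraries held was not tested. Each marker was scaled to its 90th percentile of log counts per 10000. A cell joined a type at a mean score of at least 0.4 with at least 3 markers counted and no other lineage above 0.5 of that score. Zones needed a score of at least 0.6, scaled to the 95th percentile over endothelial cells, 2 markers and no other zone above 0.75 of it. These thresholds were set after the cells had been seen. Such classes are ranges of a score and not discrete types. In the endothelial class the highest median score for another lineage was 0.1293 in the control-labelled library and 0.1221 in the knockout-labelled library.

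Counts were summed per type and library, and exact 95% intervals came from SciPy 1.17.1. A ratio against 0 counts used a floor of 3 counts. The calculation was tested on simulated counts. Alternatives were other cell filters, doublets kept, Leiden clusters (2000 variable genes without the receptors, 30 components, 15 neighbours, resolution 1), a stricter gate, scaling by edgeR 4.0.16 or by median of ratios, means over cells, thinning to 3000 counts and other minimums. Genes named are all 27 by rule, in full where highest or at least 1.5-fold apart in 4 types. The members and lists were chosen with earlier results of these data known. Smooth muscle, mesothelial, plasma and plasmacytoid classes had under 20 cells in 1 library or both and gave levels without ratios.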

Additional observations from a re-analysis of the deposited data

Results flagged for a closer look

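For 3 genes, ratios of at least 1.5-fold whose intervals lay off 0 went opposite ways in different types, so that the knockout-labelled library was above the control-labelled library in 1 type and below it in another. With 1 library per label the difference between types was not tested. How many of all genes meet the same rule is not given here. Adgre4 had log2 ratios of -0.76 in endothelial cells, 1.01 in Kupffer cells and -1.07 in monocytes. Adgre5 had log2 ratios of 0.74 in endothelial cells, 0.70 in Kupffer cells and -0.59 in monocytes. Adgrg6 had log2 ratios of -0.65 in endothelial cells, -0.62 in Kupffer cells, 1.69 in stellate cells and -1.51 in monocytes. Adgrg3 was also apart in both directions, with -0.80 in Kupffer cells, -0.66 in stellate cells and 0.76 in monocytes, but the monocyte interval of -0.03 to 1.54 included 0. The monocyte values of Adgre4 and Adgre5 turned positive with whole clusters, and the endothelial value of Adgre4 with thinned cells. The endothelial class also held Kupffer and monocyte markers, as given above. With trimmed mean or median-of-ratios scaling, Adgrg6 fell short of 1.5-fold in endothelial and Kupffer cells. With thinned cells it did so in Kupffer cells and monocytes.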

How the results depend on the processing

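Over 24 called ratios and their 222 alternative values, 214 kept their direction and 179 their 1.5-fold size. The 8 that stayed at least 1.5-fold under every alternative run were Adgrg1, Adgre5 and Adgre1 in endothelial cells, Adgre4 and Adgrl3 in Kupffer cells, and Adgrg6, Adgrl3 and Adgrd1 in stellate cells. Endothelial Adgrg1 ranged from 1.52 to 1.80 on the log2 scale and stellate Adgrg6 from 1.49 to 2.05. The log2 ratios that turned were, in thinned cells, Adgre4 in endothelial cells (0.055), Adgrg3 in Kupffer (0.12) and stellate cells (0.064) and Adgrl1 in monocytes (-0.12), and, with clusters, Adgre4 (0.45) and Adgre5 (0.16) in monocytes, Adgrg3 in Kupffer cells (0.071) and Adgrl4 in stellate cells (-0.12). The cause was not tested. Counts of genes at least 1.5-fold apart moved in Kupffer cells from 5 to 2 in thinned cells, 3 at a minimum of 50 counts and 25 CPM and 12 with no minimum. Under these last 2 they moved in endothelial cells from 6 to 3 and 14, in stellate cells from 6 to 3 and 11, and in monocytes from 7 to 4 and 17. The monocyte count also moved to 4 with clusters, 2 in thinned cells and 4 with means over cells. Shares of all genes under these settings are not given here, so these counts cannot be read as a result about the family. Without a minimum, which still asked for 1 count, all 27 genes counted as measured in at least 1 type, but not in every type. The zone count of the knockout-labelled library moved from 2 to 1 at the higher minimum, as fewer genes entered. No paired analysis was possible because each label has 1 library, and no replicate could be left out. Counting error is wide in classes of few cells: the smooth muscle class had 64 and 13, mesothelial 38 and 16, patrolling monocytes 42 and 22, neutrophils 25 and 174, and large vessel cells 62 and 36.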
